A study of Mus musculus with 34 samples.

Results

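The genes described here are 10 genes of the liver endothelium, Meox2 together with Pecam1, Cdh5, Kdr, Stab1, Stab2, Clec4g, Lyve1, Tek and Vwf, taken by name from the 37583 gene rows of a study of mouse liver. All 10 had a row. They were chosen with the knockout and wild-type values of both mRNA and nascent RNA already known, so those values are a description. Calls on them are only counted, beside the share over all genes, and no p-value is given for a member. The study measured liver of C57Bl6/CBA F1 mice at 45 days of age. Wild-type animals (WT) were set against Setd8lox/lox-Alb-Cre animals (KO), in which exon 7 of Setd8 (Kmt5a, a histone H4 lysine 20 methyltransferase) is flanked by lox sites and Cre is driven by the albumin promoter. That promoter is active in hepatocytes, so endothelial cells of the KO liver are outside the cells in which the gene was meant to be removed. Polyadenylated mRNA was sequenced in 3 WT and 3 KO libraries. Nascent RNA was sequenced from 1 WT and 1 KO library after ethynyl uridine (EU, 25 mg per kg injected 30 min before death), and from 1 WT and 1 KO library after a run-on of isolated nuclei for 3 min with bromouridine (Br). No other treatment is labelled. The labels do not say whether replicates are separate animals, so the spread between libraries may in part be technical.

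Liver sinusoids are lined by a fenestrated endothelium that clears macromolecules from blood through scavenger receptors, while arteries, portal veins and central veins have a continuous endothelium. VE-cadherin (Cdh5) and PECAM-1 (Pecam1) hold endothelial cells to each other, and the receptor tyrosine kinases VEGFR2 (Kdr) and TIE2 (Tek) receive VEGF and angiopoietin signals. Meox2 encodes a homeobox transcription factor known from mesoderm and from endothelium of muscle and heart.

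The libraries compared were whole liver. Deposited mRNA values, which the authors scaled between libraries, summed to 18069344 to 25820906 per library, and the reads re-estimated from them to 15641449 to 27108677. Nascent reads numbered 10833287 (WT) and 5583983 (KO) for EU, and 3156055 and 2317840 for Br. WT replicate 3 stood apart from the other mRNA libraries: it lay at 121.5 on the first principal component (43.9% of variance) against -46.2 to -6.11, and it had 20077 genes above 0 against 24497 to 26247. The Setd8 row (Kmt5a) held 593, 615 and 1076 in WT against 1199, 1040 and 1075 in KO, and this total over the gene includes exons other than the floxed one, so it checks nothing about the genotype labels.

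The mRNA levels of the members were described first. All 9 endothelial members were above 0 in all 6 mRNA libraries. Each library had 20077 to 26247 of 37583 gene rows above 0, so this shows only that their RNA was present. Per kilobase of the longest annotated transcript, the mean scaled mRNA level in WT was highest for Clec4g, a C-type lectin of sinusoidal endothelium (1236 ± 227, SD, n = 3). Kdr (259 ± 53.1), Stab2 (189 ± 76.6) and Stab1 (179 ± 52.5) came next, and Stab2 was within the spread of both of the others, while Kdr exceeded Stab1 by more than either SD. Cdh5 (95.3 ± 28.8) and Pecam1 (91.4 ± 7.59) were likewise within each other's spread. Tek (38.1 ± 3.25), Lyve1 (27.7 ± 2.61) and Vwf (15.4 ± 3.55) followed in that order. Meox2 was lowest at 3.53 ± 3.60, a level near 0, so that in these mRNA libraries it cannot serve as a marker of the liver endothelium. In KO the order at the top was the same for Clec4g (1154 ± 81.2) and Kdr (227 ± 26.6), then Stab1 (205 ± 6.79), Stab2 (191 ± 29.9), Cdh5 (186 ± 20.4) and Pecam1 (136 ± 16.7).

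Upstream sequence is shown for 4 members: Meox2, whose nascent RNA differed most between genotypes, the VEGF receptor gene Kdr, and the paralogous scavenger receptor genes Stab1 and Stab2. RefSeq windows (GRCm38.p6) matched 6 members, and the 250 bases before the annotated start are printed in the direction of the gene, with matches to CAGGAA or CCGGAA, or to their reverse complements TTCCTG and TTCCGG, in capitals. These 2 motifs share the GGAA core of ETS factors, which are active in endothelium. The windows lie at chr12:37108290-37108539 (Meox2, plus strand), chr5:75978456-75978705 (Kdr, minus strand), chr14:31168642-31168891 (Stab1, minus strand) and chr10:87007943-87008192 (Stab2, minus strand).
Meox2: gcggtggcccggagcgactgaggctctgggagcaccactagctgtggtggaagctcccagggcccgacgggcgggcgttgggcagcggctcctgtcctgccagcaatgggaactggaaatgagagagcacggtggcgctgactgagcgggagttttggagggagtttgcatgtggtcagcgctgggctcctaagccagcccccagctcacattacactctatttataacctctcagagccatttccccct
Kdr: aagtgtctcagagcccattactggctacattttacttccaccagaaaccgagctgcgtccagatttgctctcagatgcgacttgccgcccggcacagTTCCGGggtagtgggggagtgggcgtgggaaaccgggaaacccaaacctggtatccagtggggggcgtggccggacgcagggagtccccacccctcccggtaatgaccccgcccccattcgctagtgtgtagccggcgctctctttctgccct
Stab1: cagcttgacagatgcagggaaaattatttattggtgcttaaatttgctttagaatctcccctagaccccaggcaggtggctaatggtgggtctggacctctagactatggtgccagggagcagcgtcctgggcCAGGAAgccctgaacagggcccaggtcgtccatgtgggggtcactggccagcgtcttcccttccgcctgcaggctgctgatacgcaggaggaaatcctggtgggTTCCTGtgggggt
Stab2: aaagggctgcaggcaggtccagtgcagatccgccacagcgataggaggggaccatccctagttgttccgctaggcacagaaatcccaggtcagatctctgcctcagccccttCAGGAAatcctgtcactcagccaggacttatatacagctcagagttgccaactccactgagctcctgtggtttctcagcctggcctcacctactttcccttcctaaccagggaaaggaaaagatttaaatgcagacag
CAGGAA was found in Stab1 (2 matches), Stab2 (1), Clec4g (1) and Tek (2), and it occurs in 25.7% of 32851 promoter windows of this length. CCGGAA was found in Kdr, against 12% of windows. The GATA-type motifs AGATAA and TGATAA and the homeobox-type motif TAATTA, searched on both strands (TAATTA is its own reverse complement), were in none of the 6 windows, and they occur in 9.99%, 7.94% and 4.84% of all windows. The Meox2 window held none of the motifs searched. A match is a string of letters in the window, and binding there was not measured.

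Both junction genes among the members were higher in every library labelled KO. Cdh5 held 286, 347 and 509 scaled mRNA reads in WT and 674, 834 and 727 in KO. Every KO library was above every WT library. The fitted difference was 1.00 on the log2 scale of value plus 1 (SE 0.24, 2.00-fold higher in KO), and it was 1.23 without WT replicate 3. Pecam1 held 344, 294 and 306 in WT and 400, 500 and 499 in KO, again without overlap, a log2 difference of 0.56 (SE 0.19).

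The receptor genes Kdr and Tek did not separate by genotype. Kdr held 1763, 1662 and 1175 in WT and 1519, 1215 and 1297 in KO, a log2 difference of -0.17 (SE 0.21). The lowest value was WT replicate 3, and the other 2 WT libraries were the highest of the 6. Tek held 184, 188 and 160 in WT and 160, 261 and 235 in KO (0.27, SE 0.25), and its groups met at 160.

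Among scavenger and lectin receptors of sinusoidal cells, Stab1, Stab2 and Clec4g differed between genotypes by less than their within-group spread. Stab1, which encodes stabilin-1, held 1747, 1589 and 954 in WT and 1673, 1581 and 1677 in KO. The KO values lay close together, while WT replicate 3 was far below the rest (log2 difference 0.25, SE 0.25, and -0.02 without that library). Stab2, which encodes the hyaluronan-clearing receptor stabilin-2, held 1094, 1294 and 2272 in WT and 1297, 1774 and 1641 in KO. Here WT replicate 3 was the highest of the 6 libraries (0.08, SE 0.29, and 0.39 without it). The ratio of Stab1 to Stab2 was 1.60, 1.23 and 0.420 in WT and 1.29, 0.891 and 1.02 in KO, so these paralogues moved in opposite directions in that library. Clec4g held 2104, 1793 and 1449 in WT and 1531, 1750 and 1712 in KO (-0.08, SE 0.20), with WT values on both sides of the KO values. Lyve1, a hyaluronan receptor of lymphatic and sinusoidal endothelium, held 88, 79 and 73 in WT and 90, 170 and 206 in KO (0.87, SE 0.34). Its groups did not overlap, although KO replicate 1 (90) was next to the highest WT library (88).

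Vwf, the von Willebrand factor of large-vessel endothelium and platelets, held 170, 131 and 108 in WT and 269, 224 and 202 in KO. The groups did not overlap, and the log2 difference was 0.78 (SE 0.25). In whole liver, a different number of endothelial cells and a different amount of RNA per cell cannot be told apart.

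Meox2 was barely present in mRNA, with 17, 8 and 0 in WT and 3, 1 and 4 in KO. The groups overlapped, because WT replicate 3 was at 0 and the other 2 WT libraries were the highest of the 6. It did not pass the filter on low values (at least 10 in at least 3 libraries). The difference of mean log2 values was -0.67, below its within-group SD of 1.61, and it ran from -1.90 without WT replicate 3 to 0.19 without WT replicate 1.

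**Figure D1:**
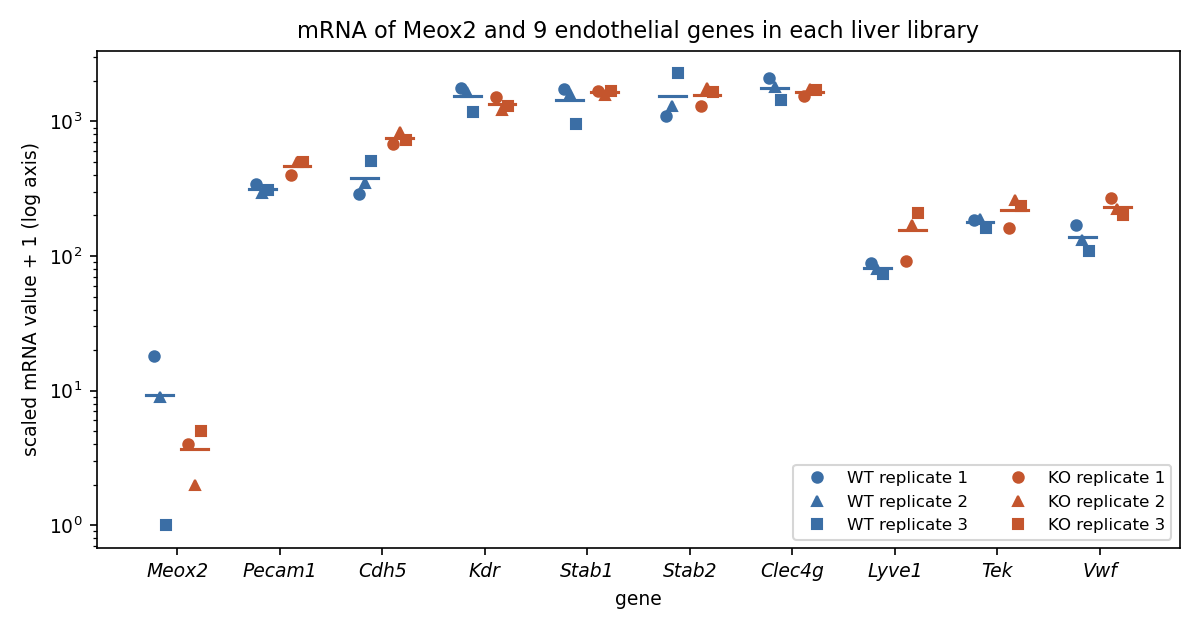
Scaled mRNA value plus 1 (log axis) of each member in the 3 WT and 3 KO libraries; each point is a library and each horizontal line the group mean of the values. The KO points of Cdh5, Pecam1, Lyve1 and Vwf sit above all WT points, and WT replicate 3 (square) is at the top for Stab2 and at the bottom for Stab1.

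Together, 9 of the 10 members passed the filter, and limma called 0 of them at an adjusted p under 0.05, where it called 2.71% of the 16813 genes tested (1.35% higher and 1.36% lower in KO). At an unadjusted p under 0.05 there were 4 (Pecam1, Cdh5, Lyve1 and Vwf), all higher in KO, against 20% of all genes in either direction and 10.2% higher in KO. edgeR on re-estimated reads called 0 (3.07% of genes) and DESeq2 called 1, Cdh5 (10.8% of 16475 genes). Without WT replicate 3, limma called Cdh5, a setting that called 9.91% of all genes (4.74% higher in KO). Of the 9, 4 had all KO values above all WT values (13.2% of genes) and 0 had all below (12.8%). The median log2 difference of the 9 was 0.27, and over all genes tested it was 0.0023. The median of the 9 ran from 0.23 to 0.48 with single libraries left out, the highest without KO replicate 1. Because the members were chosen on this contrast, nothing is read from these counts.

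Ratios of Cdh5 to the other 8 endothelial members within each library reuse the same values and depend on the partner. The KO ratios were all above the WT ratios for 3 partners (Kdr, Clec4g and Stab2) and overlapped for 5 (Pecam1, Stab1, Lyve1, Tek and Vwf). The ratio of Cdh5 to Kdr was 0.162, 0.209 and 0.433 in WT and 0.444, 0.686 and 0.561 in KO. The ratio to Stab1 was 0.164, 0.218 and 0.534 in WT and 0.403, 0.528 and 0.434 in KO, with WT replicate 3 the highest.

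A wider set of 78 further endothelial genes was read beside the members. Of 74 that passed the filter, limma called 0, against 2.71% of all genes. At an unadjusted p under 0.05 there were 9 (8 higher and 1 lower in KO), against 20% of all genes. edgeR called 0 (3.07% of all genes), and DESeq2 called 2, Oit3 and Flt4, against 10.8% of all genes. Without WT replicate 3, limma called 3, all higher in KO (Oit3, Gpr182 and Reln), where it called 9.91% of all genes. Counted in either direction, each of these shares of the 74 is below that of all genes. The 8 higher in KO at an unadjusted p under 0.05 are near the 10.2% of all genes that were. The median log2 difference of the 74 was 0.05, and 0.21 without WT replicate 3. The 20 genes of sinusoidal endothelium had a median of 0.23 (0.47 without WT replicate 3), with 15 above 0, and the groups of its 3 most abundant members overlapped. The lysosomal protease gene Ctsl held 7631, 7452 and 5729 in WT and 5156, 4727 and 8466 in KO. Ehd3, a membrane-trafficking gene, held 1853, 1958 and 3506 in WT and 2158, 2128 and 2645 in KO. Dnase1l3, a secreted DNase gene, held 934, 983 and 1570 in WT and 995, 1083 and 1093 in KO.

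The 30 genes shared by endothelia in general had a median of -0.04 (-0.11 without WT replicate 3). The TGF-beta co-receptor gene Eng held 1879, 1871 and 3370 in WT and 2356, 2296 and 2472 in KO. Ptprb, the phosphatase VE-PTP that acts on TIE2 and VE-cadherin, held 999, 1332 and 1583 in WT and 1057, 1503 and 1829 in KO. Egfl7 held 1013, 633 and 461 against 742, 673 and 596. All of these overlapped between genotypes.

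The 20 tested genes of arterial, portal and central vessels had a median of 0.03 (-0.05 without WT replicate 3). Plvap, which encodes a protein of endothelial diaphragms, held 1667, 1095 and 1158 in WT and 2214, 1862 and 1784 in KO. Ltbp4, a TGF-beta binding protein of the matrix, held 803, 784 and 352 in WT and 1307, 1008 and 1014 in KO. Neither overlapped between genotypes, and neither passed the test (limma, adjusted p = 0.18 and 0.20). The venous receptor gene Ephb4 held 1330, 1142 and 1136 in WT and 1117, 1052 and 1330 in KO, with overlap. The 4 lymphatic genes had a median of 0.32 (0.63 without WT replicate 3). Prox1, a factor of lymphatic endothelium and hepatocytes, held 1383, 1227 and 1695 in WT and 1671, 1994 and 2676 in KO, with overlap. Reln held 748, 737 and 1131 against 1094, 1423 and 1371, also with overlap. The other lymphatic genes were low and hardly differed. Pdpn held 15, 3 and 23 in WT and 10, 7 and 19 in KO (log2 difference 0.07). Mmrn1 held 10, 18 and 7 against 10, 12 and 13 (0.09).

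**Figure D2:**
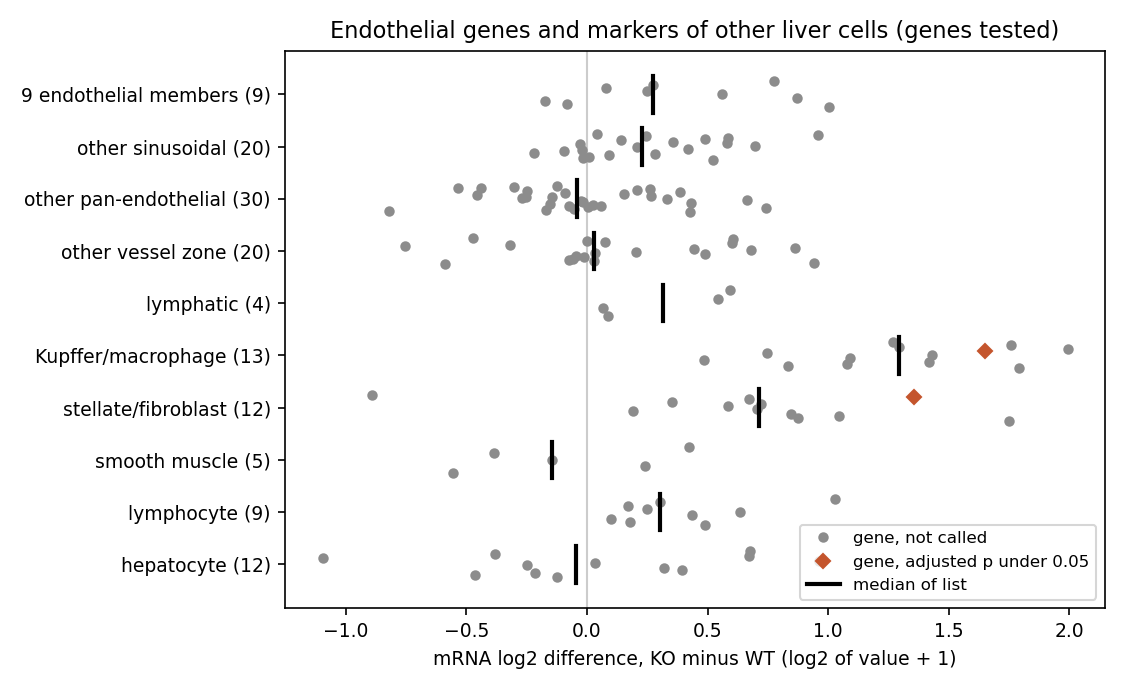
KO minus WT log2 difference of mRNA for each tested gene of the members and of lists of related genes and other cell types; each point is a gene, a diamond is a gene called by limma, each bar is the list median, and numbers in brackets are genes tested. The medians of the endothelial lists lie between -0.04 and 0.32, and those of the Kupffer and macrophage list (1.29) and the stellate list (0.71) lie to the right of them.

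Ligand and receptor genes of the VEGF and angiopoietin pathway held 1 called gene of 14 tested, lower in KO, against 1.36% of all genes. That was Vegfa, the VEGF ligand of Kdr that hepatocytes also make, at 8351, 7603 and 9370 in WT and 4002, 3551 and 4527 in KO. It fell 2.10-fold (limma, adjusted p = 0.032), and the groups did not overlap. The call was lost when any 1 of the 5 libraries other than WT replicate 3 was left out (adjusted p up to 0.187). The VEGF co-receptor gene Nrp1 held 1724, 1486 and 3220 in WT and 946, 1004 and 1013 in KO, without overlap, but did not pass the test (limma, adjusted p = 0.099). Flt4, which encodes VEGFR3, held 526, 625 and 525 in WT against 798, 1017 and 906 in KO, and did not pass either (adjusted p = 0.085). Among 24 genes of TGF-beta, BMP, Notch, S1P and Wnt signalling, 1 was called, higher in KO, against 1.35% of all genes. Notch1, a receptor that acts in endothelium and in many other cells, held 287, 246 and 237 in WT and 628, 667 and 438 in KO. It rose 2.22-fold (limma, adjusted p = 0.039), and that call was lost when WT replicate 1 or 2, or KO replicate 1 or 2, was left out (adjusted p up to 0.215). The median log2 difference was 0.06 in the VEGF and angiopoietin list and 0.12 in the signalling list (0.11 and 0.28 without WT replicate 3). Id3, a target of BMP signalling, held 1014, 874 and 1786 in WT and 1203, 1623 and 995 in KO, with overlap.

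Homeobox and fatty acid uptake genes associated with Meox2 held 1 called gene of 7 tested, higher in KO, against 1.35% of all genes. Cdkn1a, the cell cycle inhibitor p21 that Meox2 can activate and that many stresses induce, held 70, 21 and 16 in WT against 2210, 1443 and 518 in KO. It rose 39.7-fold (limma, adjusted p = 0.011), a call lost without KO replicate 2 or WT replicate 2 (adjusted p up to 0.064). Fabp5, a fatty acid binding protein, held 1579, 1347 and 952 in WT and 886, 470 and 477 in KO, without overlap (adjusted p = 0.094). The lipoprotein lipase gene Lpl held 714, 581 and 636 in WT and 1011, 870 and 553 in KO, with overlap. Meox1, the paralogue of Meox2, held 12, 10 and 5 in WT and 44, 26 and 12 in KO, with groups that met at 12 (adjusted p = 0.27). Cd36, a fatty acid transporter of endothelium, macrophages and hepatocytes, held 145, 104 and 382 in WT and 372, 581 and 488 in KO, with overlap (adjusted p = 0.14). The median of this list was 0.61 (0.86 without WT replicate 3).

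Of 10 hyaluronan and scavenger receptor genes other than the members, limma called 0, against 2.71% of all genes. Some of the 10 also stand in the lists above. At an unadjusted p under 0.05 there were 5 (4 higher and 1 lower in KO), against 20% of all genes. edgeR called 0 (3.07% of all genes), and DESeq2 called 3 (10.8% of all genes). The median of the 10 was 0.54. The Kupffer cell lectin gene Clec4f held 3196, 3003 and 2469 in WT and 4915, 6109 and 3739 in KO. The scavenger receptor gene Colec12 held 870, 976 and 1483 against 532, 555 and 652. Neither overlapped, and neither passed the test (limma, adjusted p = 0.13 and 0.084). Scarb1, the HDL receptor gene, held 2437, 2322 and 3049 in WT and 2479, 3349 and 4636 in KO, with overlap.

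Of 11 genes of haemostasis at the vessel wall limma called 0, against 2.71% of all genes. At an unadjusted p under 0.05 there were 2, both higher in KO, against 10.2% of all genes. edgeR called 0 (3.07% of all genes), and DESeq2 called 1 (10.8% of all genes). The median of the 11 was 0.61. Adamts13, the protease that cleaves von Willebrand factor, held 138, 137 and 89 in WT and 425, 302 and 221 in KO, without overlap, and did not pass the test (limma, adjusted p = 0.060). F8, coagulation factor VIII, held 181, 186 and 241 in WT and 167, 372 and 312 in KO. Anxa2, annexin A2, held 109, 158 and 197 against 467, 273 and 148. Both overlapped.

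Summed markers of Kupffer cells and of stellate cells were higher in every KO library than in every WT library. All 13 Kupffer cell and macrophage genes were above 0 in their log2 difference, and their summed level was 8134 to 9749 in WT and 11501 to 26129 in KO. Of 12 stellate cell and fibroblast genes 11 were above 0, with sums of 6578 to 8184 in WT and 11257 to 12860 in KO. In each of these lists limma called 1 gene, higher in KO, against 1.35% of all genes. Csf1r, the macrophage growth factor receptor, rose 3.14-fold (adjusted p = 0.038), and Pdgfrb, a receptor of stellate cells and pericytes, rose 2.56-fold (adjusted p = 0.021). Both calls were lost when WT replicate 1 or 2, or KO replicate 1 or 2, was left out, and that of Pdgfrb also without KO replicate 3 (adjusted p up to 0.169 and 0.115). At an unadjusted limma p under 0.05 there were 11 of the 13 Kupffer cell and macrophage genes, all higher in KO. Of the 12 stellate cell and fibroblast genes there were 8 (7 higher and 1 lower), against 20% of all genes. edgeR called 3 and 1 in the 2 lists (3.07% of all genes), and DESeq2 called 9 and 5 (10.8%). No gene of any marker list was at 0 in all libraries. Lyve1, Stab1 and Pecam1 are also made by some macrophages, and the part of those cells in the higher KO values of Lyve1 and Pecam1 was not tested. Platelets share Vwf and Pecam1 with endothelium, and the 3 platelet genes that passed the filter had a median of 0.01, and all 6 listed platelet genes summed to 254 to 521 in WT and 334 to 441 in KO. The 12 hepatocyte genes had a median of -0.05 (0.19 without WT replicate 3). Of the remaining lists, the 6 bile duct genes had a median of 0.08. Their sums were 562 to 706 in WT and 1044 to 1935 in KO. This list held 1 called gene, higher in KO, against 1.35% of all genes. That was Spp1, which encodes osteopontin, at 263, 301 and 470 in WT and 1569, 1387 and 803 in KO. It rose 3.60-fold (limma, adjusted p = 0.028, lost under the same omissions as Csf1r, up to 0.153). Spp1 made up most of the KO sums, and no other gene of this list separated the genotypes without overlap. The medians were -0.14 for 5 smooth muscle genes, 0.18 for 4 mesothelial, 0.30 for 9 lymphocyte, 1.45 for 2 neutrophil and -0.13 for 3 erythroid genes. Without WT replicate 3 the smooth muscle median was -0.65, the mesothelial 0.44, the lymphocyte 0.02 and the neutrophil 1.76.

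Nascent RNA gave a second view of the members, with 1 library per genotype and hence no replicate check. Ratios are of RPKM plus 0.5, centred on the median of 13494 genes, and 95% intervals (Clopper-Pearson) are of reads and cover counting error only. EU reads of Meox2 numbered 226 in the WT library and 1 in the KO library (centred log2 ratio -4.58). The ratio of reads alone was -6.80, with an interval of -12.1 to -4.30. In Br it held 23 reads in WT and 0 in KO, at least 5.63-fold lower in KO when 3 counts in the KO library are taken as the limit that 0 allows and the WT reads as exact. The counting interval, which covers the error of the WT reads too, ends at -2.08 on the log2 scale. Both methods placed Meox2 lower in the KO library. Its EU reads in WT far outnumbered the 14, 8 and 0 mRNA reads re-estimated for the WT libraries.

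Other genes were also nearly absent from the EU library of KO. Of 8886 genes with at least 100 EU reads in WT, 147 (1.65%) had KO reads at or under 2% of the WT reads, and 55 (0.619%) were as low as Meox2. In the opposite direction, 75 of 9601 genes with at least 50 EU reads in KO had WT reads at or under 2% of them. Of the 147 genes, 137 had at least 10 Br reads in WT, and 3 of these were at or under 10% in Br as well: Meox2, Rbm20 and Gm12791. The median Br reads of the 137 were 61.3% of WT, where all Br reads were 73.4% of WT. These limits were chosen after the Meox2 values were seen. In Br, 10 of the 12948 genes with at least 23 WT reads had 0 reads in KO.

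Agmo, the neighbour of Meox2 with the most reads, did not share its near absence in KO. This ether lipid monooxygenase gene held 1204 EU reads in WT and 815 in KO (111 and 146 RPM, reads scaled by the library total). In Br it held 71 and 59 reads. Among other neighbours the direction depended on the gene and on the measure. Ispd, on the other side, held 34 and 6 EU reads (3.14 and 1.07 RPM) and 1 and 2 Br reads. Ankmy2 was lower in KO in both methods, at 163 and 56 EU reads (15.0 and 10.0 RPM) and 18 and 4 Br reads (5.70 and 1.73 RPM). Dgkb held 3 and 4 EU reads and 11 and 2 Br reads. Sostdc1, with 1 read in each nascent library, held 17, 15 and 10 in WT mRNA and 3, 3 and 5 in KO mRNA, without overlap. A sense intronic transcript, Gm48617, overlaps Meox2 in GENCODE and has no row of its own in the files, so reads of the 2 cannot be told apart.

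**Figure D3:**
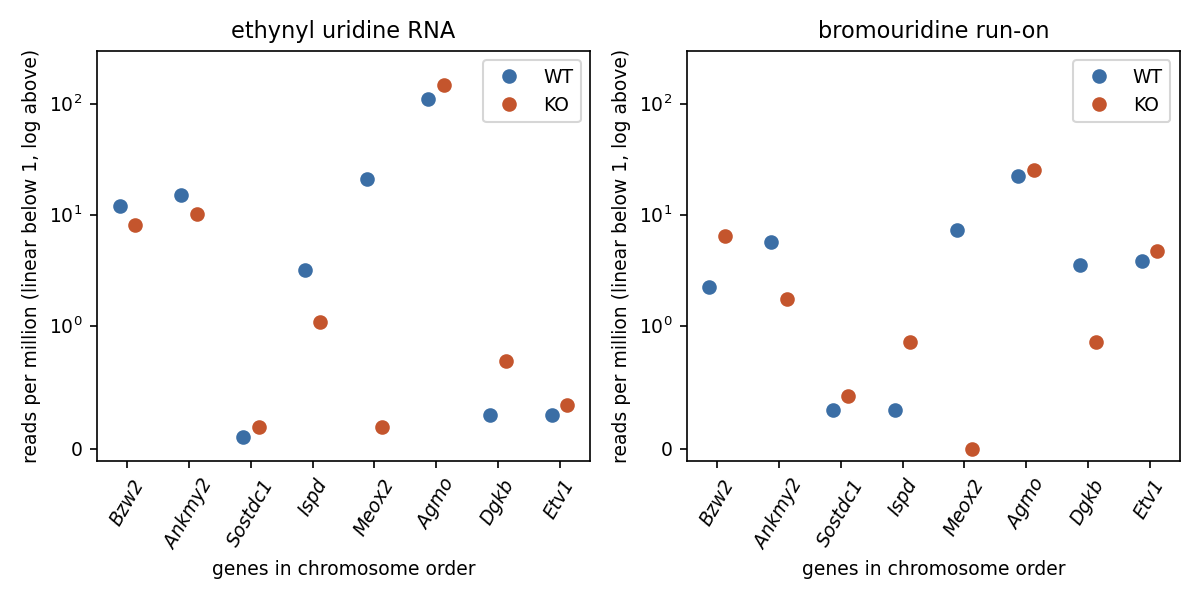
RPM (reads scaled by the library total) in the EU and Br libraries for Meox2 and its neighbours in gene order; each point is 1 library, and the axis is linear below 1 and logarithmic above. In EU, Meox2 has 20.9 RPM in WT and 0.179 RPM in KO, while Agmo has 111 and 146.

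None of the other 9 members was near absent from nascent RNA in KO. Of these, 3 had an EU log2 ratio of at least 1, where 19% of genes did, and 0 had a ratio of -1 or lower (19%). In Br there were 0 in either direction (7.86% and 7.39%). The medians were 0.03 in EU and -0.02 in Br. Meox2 was the only one of the 10 at -1 or lower, in both methods.

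Pecam1 differed most among the 9 in EU, with 26 reads in WT and 130 in KO (3.08). In Br it held 54 and 55 reads (0.46), with an interval of the read ratio from -0.10 to 1.04, so the 2 methods gave different sizes. Cdh5, the member with the largest mRNA difference, held 39 and 20 EU reads (0.06) and 106 and 66 Br reads (-0.24). Both of its intervals span 0 (-0.79 to 0.87 and -0.70 to 0.22).

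Kdr held 94 and 143 EU reads (1.57) and 254 and 263 Br reads (0.49), and both intervals lie above 0 (1.24 to 2.02 and 0.24 to 0.75), whereas its log2 difference in mRNA was -0.17. Tek held 71 and 85 EU reads (1.03) and 82 and 48 Br reads (-0.29), with intervals of 0.81 to 1.76 and -0.87 to 0.20. The signs of Tek thus differed between methods.

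Stab2 was the most deeply read member, with 493 and 211 EU reads (-0.20) and 653 and 559 Br reads (0.22, interval 0.06 to 0.39). Stab1 held 181 and 79 EU reads (-0.17) and 570 and 412 Br reads (-0.02). Clec4g held 38 and 11 EU reads (-0.72) and 151 and 109 Br reads (-0.02). The read-ratio intervals of Stab1 and Clec4g span 0 in both methods. Lyve1, at 21 and 6 EU reads and 33 and 21 Br reads, had no difference detectable at this depth. Vwf held 18 and 9 EU reads (0.03) and 22 and 30 Br reads (0.89, interval 0.05 to 1.76).

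**Figure D4:**
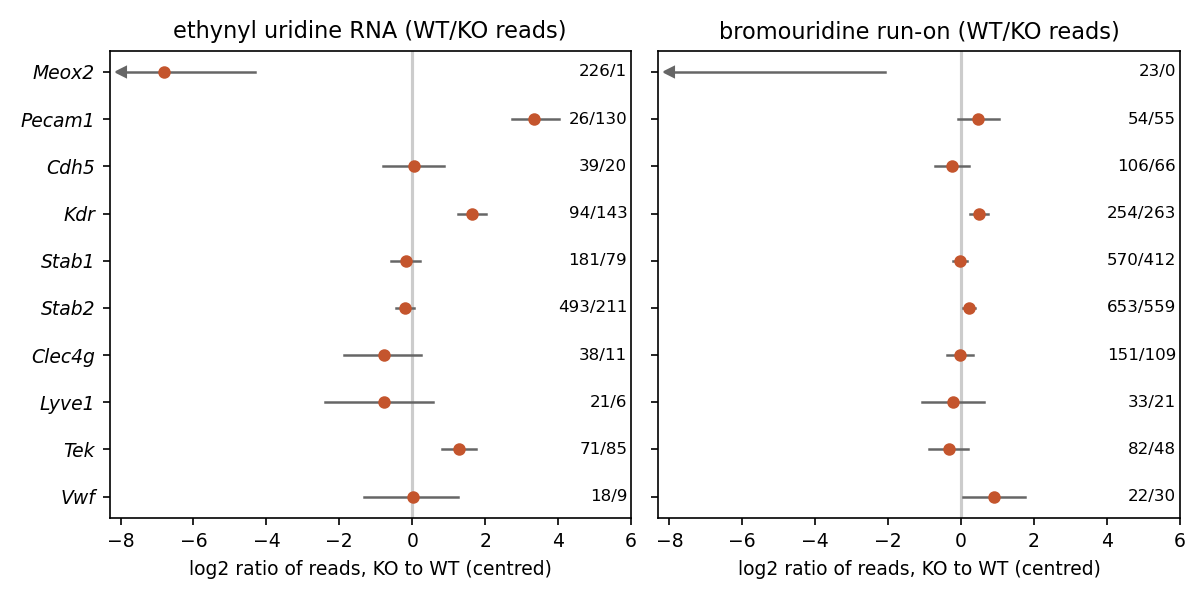
Centred log2 ratio of reads, KO to WT, for each member in EU (left) and Br (right), from 1 library per genotype; points are ratios of reads with no value added, lines are 95% counting intervals, arrows mark intervals that run past the axis, and WT/KO reads stand at the right. Meox2 lies at -6.80 in EU and has no point in Br, where KO is at 0 reads, and the other Br points sit between -0.33 and 0.89.

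The 9 endothelial members were read much more by run-on than by EU, which was noticed in the data and then described. In WT all 9 had a lower RPM in EU than in Br, from a log2 ratio of -1.99 for Tek to -3.77 for Clec4g, and the median was -2.83. Over 15949 genes with at least 20 reads the median was -0.58, and over 12144 genes with Br reads in the range of the 9 it was -0.75. In KO the median of the 9 was -2.99 against -0.31 over 14370 genes. All 9 were again below 0, but Pecam1 (-0.03) and Tek (-0.44) were near it. Meox2 differed from the 9 in WT, with a ratio of 1.52, above that of 87.9% of genes.

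The lists of other non-parenchymal cells also had low median EU shares, though not every gene in them did. In WT the median ratio was -2.95 for the other endothelial genes (63 with enough reads), -2.20 for Kupffer and macrophage genes (11) and -2.44 for stellate genes (12), while hepatocyte genes were at 0.76 (12). In KO these medians were -2.77, -1.27, -2.11 and -0.19. In WT, 50 of the 63 endothelial, 10 of the 11 Kupffer and 7 of the 12 stellate genes were below the median of all genes. So were 4 of the 12 hepatocyte genes. In KO these counts were 45 of 56, 5 of 9, 6 of 10 and 5 of 12. EU was taken up in the living animal and Br by isolated nuclei, each in 1 library per genotype.

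**Figure D5:**
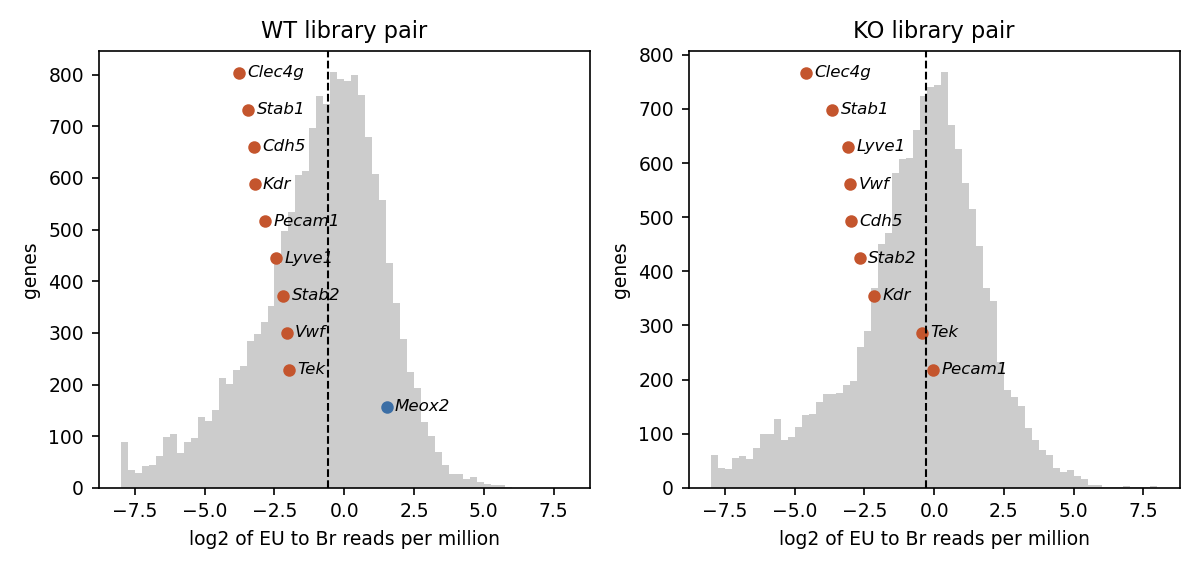
Histogram of the log2 ratio of EU RPM to Br RPM over genes with at least 20 reads in the WT pair (left) and the KO pair (right); the vertical axis counts genes, genes beyond the ends are counted in the outermost bins, the dashed line is the median of all genes, and the members are points at their own ratio, with arbitrary height. The 9 endothelial members sit between -3.77 and -1.99 in WT, and Meox2, which has too few reads for the KO panel, sits at 1.52.

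Genes whose mRNA pattern was most like that of the members were listed over the 6 libraries and 12284 genes with a mean scaled value of at least 50. The mean of the 9 endothelial members correlated most with Gm10233, Gm10136, Gm7336, Gm9144 and Gm6457 (Pearson r from 0.989 to 0.996). Meox2 correlated most with Gm12505, Celsr2, Tusc3, Naxe and Slc17a6 (r from 0.989 to 0.995). With 6 points that share depth and a library that stands apart, r exceeded 0.9 for 336 and 241 genes, and these names are a description.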

How the data were processed

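Groups were taken from the sample titles. Of 34 samples, 10 were analysed; the remaining 24 (chromatin and inputs) were not used here. The submitters' processing notes name mm9 as the genome, and TopHat2, Cufflinks, Bowtie2, DESeq, SICER and MACS2 as tools. Which counter, strand setting and annotation were used is not given in the sources used here. Deposited mRNA values are treated as a score, since the authors scaled them by library and rounded them. Reads were re-estimated from the rounding step, and are approximate in WT replicate 2, KO replicate 1 and KO replicate 2, whose step is under 1. The nascent files hold counts as deposited, and since every Br count is even, Br counts were divided by 2. The authors also deposited RPKM for the 4 nascent libraries, whose levels are not compared between genes.

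Differences in mRNA were fitted with limma 3.58.1 (R 4.3.3, trend and robust) on log2 of the value plus 1, over genes with at least 10 in at least 3 libraries, with Benjamini-Hochberg adjustment over all genes, two-sided, called under 0.05. Alternatives were edgeR 4.0.16 and DESeq2 1.42.0 on re-estimated reads, TMM scaling, no filter, pseudocounts of 0.5 and 10, a replicate block and each library left out. Nascent ratios used RPKM plus 0.5 for genes whose mean RPKM reached 1. Alternatives there were pseudocounts of 0.1 and 2, a floor of 0.2, no centring and counts. The code was tested on simulated data, where limma left many genes that had been changed by a large fold uncalled, so a count of 0 does not show that genes did not change. EU was compared with Br over genes with at least 20 reads in the pair.

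The members and the 19 gene lists were chosen with earlier results of these data known. Some genes stand in several lists, so the counts and medians of the lists are not independent of each other. Named by rule were all members, and of each list up to 3 genes, called genes first and then the most abundant. Of the lists of other cell types the text gives only the called genes. Other names (Oit3, Gpr182, Flt4, Mmrn1, Meox1, Cd36 and neighbours of Meox2) were chosen after their values were seen. Gene names came from GENCODE M21 and transcript lengths from the same annotation, whose build is later than mm9, so gene coordinates of the files are not printed. Ccl21a and Hbb-b1 had no row under these names.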

Additional observations from a re-analysis of the deposited data

How the results depend on the processing

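The count of genes called in mRNA was 455. It was 1781 with DESeq2 and between 28 and 1666 when single libraries were left out, being 1666 without WT replicate 3, 290 without KO replicate 3, 154 and 52 without WT replicates 1 and 2, and 111 and 28 without KO replicates 1 and 2. The other endothelial genes called, 0 with limma, were 2 with DESeq2 and 0 to 3 with single libraries left out (3 without WT replicate 3). edgeR, TMM scaling, no filter and the other pseudocounts gave 442 to 621 called genes.

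With the replicate number as a block, 1014 genes were called (500 higher and 514 lower in KO), and Cdh5 was the one member among them. Deviations of same-numbered libraries correlated at 0.41, -0.24 and 0.20, and those of differently numbered libraries at -0.39 to 0.27. These values do not settle whether the numbers mark a pairing.

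Among members, the sign of the mRNA difference depended on single libraries for Meox2 (-1.90 to 0.19), Clec4g (-0.23 to 0.04), Stab1 (-0.02 to 0.42) and Stab2 (-0.14 to 0.39), all within the spread between replicates. Cdh5 (0.82 to 1.23), Pecam1 (0.51 to 0.67), Lyve1 (0.63 to 1.22) and Vwf (0.62 to 0.95) were higher in KO under all 13 alternatives. Their KO values all lay above their WT values, so leaving out a library could not change the sign. The other settings reuse the same libraries, so the constant sign is no further support. Tek (0.13 to 0.48) was also higher in KO under all 13, and Kdr (-0.36 to -0.06) was lower under all 13. The Meox2 nascent ratio ranged from -5.99 to -2.98 in EU and from -5.78 to -1.88 in Br over 5 alternatives. The median mRNA difference of the 9 ran from 0.23 to 0.48, and their median EU ratio from -0.04 to 0.05. Depth limits the EU values of Vwf, Lyve1, Pecam1, Clec4g and Cdh5 most, at 18 to 39 reads in WT, and 1 library per genotype gives no replicate error. For the counts that moved, the cause was not tested.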
